A study of Mus musculus with 4 samples.

Results

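The 7 TGF-beta pathway genes described here are the ligand gene Tgfb1, the receptor genes Tgfbr1 and Tgfbr2, the signal transducer Smad3, the inhibitory Smad7, and Ski and Skil, which encode the corepressors SKI and SnoN. They were found by symbol among 32285 genes, each symbol matched 1 row, and all 7 had UMIs in every library. A unique molecular identifier (UMI) counts each captured RNA molecule once. The genes were followed across CD8+ and CD4+ Tc, across Tc states, and across the other cells in the same libraries.

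The data are single-cell RNA counts (10x Genomics 3′ chemistry) from spleen Tc taken on day 23 after transplantation. Lethally irradiated BALB/c mice had received WEHI-3B cells, a mouse myelomonocytic leukemia line, with donor bone marrow, and later donor Tc of a C57BL/6 background. Of the 4 libraries, 2 are labelled as from recipients of Havcr2fl/fl;E8icre/+ donor cells and 2 from recipients of Havcr2fl/fl donor cells. Both groups carry the floxed Havcr2 alleles and received irradiation, leukemia and transplant, and they differ in E8i-cre. Havcr2 encodes TIM-3, and E8i-cre is driven by an enhancer of the Cd8a locus, so that deletion is meant for CD8+ cells while CD4+ Tc serve as an internal comparison. The labels number the libraries within each genotype and do not say whether each is 1 mouse or a pool, so p-values concern these samples. In tests of genotype within a class they rest on the spread between libraries of a genotype. In comparisons of cells of the same library they rest on how the difference varies over libraries.

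The libraries held 1511 to 6737 barcodes and 17693991 to 55045903 gene UMIs, with a median of 5234 to 7457 UMIs per cell kept, and pairs of libraries shared 1 to 10 barcode sequences. After filters on genes, UMIs and mitochondrial reads and removal of 119 doublets, 11513 of 15784 barcodes remained. Clusters in which most cells had a CD3 gene UMI held 6806 cells, of which 4277 were CD8+ Tc and 1767 were CD4+ Tc by UMIs. Another 4707 cells, labelled as Tc in the sample sheet, fell in clusters of erythroid, progenitor, myeloid and B lineage markers and are called other cells.

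Expression of the targeted gene went against the label of 1 library. In CD8+ Tc, Havcr2 stood at 61.2 and 7.88 CPM (UMIs scaled to the total of the cells summed) in the libraries labelled Havcr2fl/fl;E8icre/+ replicates 1 and 2, and at 54.5 and 114 CPM in the libraries labelled Havcr2fl/fl replicates 1 and 2. Replicate 1 labelled Havcr2fl/fl;E8icre/+ thus lay within the range of the Havcr2fl/fl libraries. Reads at the 3′ end may come from outside the deleted part, whose position is not given in the sources used here. Replicate 2 of the same label, read with the same chemistry, stood at 7.88 CPM. Why replicates 1 and 2 of this label differ was not tested. Genotype results are therefore given with and without that library.

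TGF-beta is secreted in a latent form and is freed by integrins that contain the alpha-v chain. The active ligand binds TGFBR2, which recruits and phosphorylates TGFBR1, and TGFBR1 phosphorylates SMAD2 and SMAD3, which enter the nucleus with SMAD4. SMAD7, itself induced by the pathway, blocks the receptor and brings ubiquitin ligases to it, while SKI and SnoN hold SMAD complexes in a repressed state and are degraded upon signaling. In T cells the pathway is known to restrain effector function, to support FOXP3+ regulatory Tc (Treg) and to induce CD103, the product of Itgae.

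On GRCm38, Tgfb1 lies on the plus strand at chr7:25687002-25705077 and Tgfbr1 on the plus strand at chr4:47353222-47414931. Tgfbr2 (chr9:116084293-116175360) and Smad3 (chr9:63646767-63757994) lie on the minus strand of the same chromosome. Ski lies at chr4:155154075-155222592 on the minus strand and Skil at chr3:31095058-31122577 on the plus strand. GENCODE M21 lists no gene that overlaps any of the 7 on either strand. Whether reads are shared with transcripts outside this annotation was not tested.

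The 250 bases upstream of the annotated start are shown for Tgfb1, which rose in CD8+ Tc with an Mki67 UMI, and Tgfbr1, which differed most in CD4+ Tc with a Foxp3 UMI (RefSeq starts, GRCm38.p6, both on the plus strand, chr7:25686752-25687001 and chr4:47352972-47353221). Capitals mark the GC box GGGCGG and its reverse complement CCGCCC.
Tgfb1: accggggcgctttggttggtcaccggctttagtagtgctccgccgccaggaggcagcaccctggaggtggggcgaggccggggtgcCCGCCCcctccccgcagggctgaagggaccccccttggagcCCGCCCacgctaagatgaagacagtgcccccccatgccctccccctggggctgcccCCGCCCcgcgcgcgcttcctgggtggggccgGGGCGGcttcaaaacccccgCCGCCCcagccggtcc
Tgfbr1: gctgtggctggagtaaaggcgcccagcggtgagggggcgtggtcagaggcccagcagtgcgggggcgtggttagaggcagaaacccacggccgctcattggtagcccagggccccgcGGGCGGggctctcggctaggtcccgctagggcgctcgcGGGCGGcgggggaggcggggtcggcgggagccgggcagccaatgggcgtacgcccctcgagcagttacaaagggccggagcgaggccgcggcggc
The Tgfb1 window held 5 GC boxes and the Tgfbr1 window 2, with a GC content of 75.2% and 74.8%. A second annotated start of Tgfbr1, whose window of the same length is not shown, had 0 GC boxes and a GC content of 52.8%. Of 32851 windows of the same length, 32.7% held a GC box on either strand. Neither window held the SMAD palindrome GTCTAGAC, present in 0.167% of windows, or the forkhead motif TGTTTAC, present in 3.17%. Windows were read for 5 of the 7 genes, without Smad7 and Skil, and no match in a window says only that these letters are not there.

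Levels in the 3 large classes are given as CPM, the UMIs of a gene per 1000000 UMIs summed over the class in each library (mean ± SD over 4 libraries). A level in summed cells cannot tell fewer cells with a transcript from less RNA per cell. Tgfb1 was at 87.8 ± 8.6 CPM in CD8+ Tc, 111 ± 15 CPM in CD4+ Tc and 118 ± 19 CPM in other cells. The receptor gene Tgfbr2 stood at 85.7 ± 9.4 and 108 ± 24 CPM in CD8+ and CD4+ Tc and at 5.84 ± 2.45 CPM in other cells. Tgfbr1 was at 10.1 ± 1.9, 18.0 ± 3.1 and 7.43 ± 1.55 CPM in the same order.

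Intracellular regulators also had a lower CPM in the other cells summed together. Cells with many UMIs weigh most in this sum, and an unnamed cluster with some erythroid markers held 1578 cells at a median of 26426 UMIs. Library medians in CD8+ Tc were 3027 to 6974.5 UMIs per cell. A CPM is a share of all UMIs, so a lower one need not mean fewer UMIs per cell, which were not compared here. Over the 10 clusters of other cells, means ran from 0.61 to 69.6 CPM for Skil and from 0.97 to 32.4 CPM for Ski. They ran from 0.66 to 32.2 CPM for Smad7 and from 0 to 12.0 CPM for Smad3. Smad3 was at 16.6 ± 3.8 CPM in CD8+ Tc, 22.6 ± 5.4 CPM in CD4+ Tc and 4.44 ± 0.74 CPM in other cells. Smad7 was at 88.4 ± 3.7, 80.7 ± 10.7 and 14.2 ± 2.5 CPM. Ski was at 24.2 ± 5.5, 60.0 ± 4.7 and 8.73 ± 2.99 CPM, and Skil at 36.6 ± 5.4, 51.2 ± 6.0 and 8.16 ± 2.49 CPM. In the plot by library, Tgfbr2, Smad3, Smad7, Ski and Skil in other cells lay below every CD8+ and CD4+ Tc value of the same gene.

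**Figure D1:**
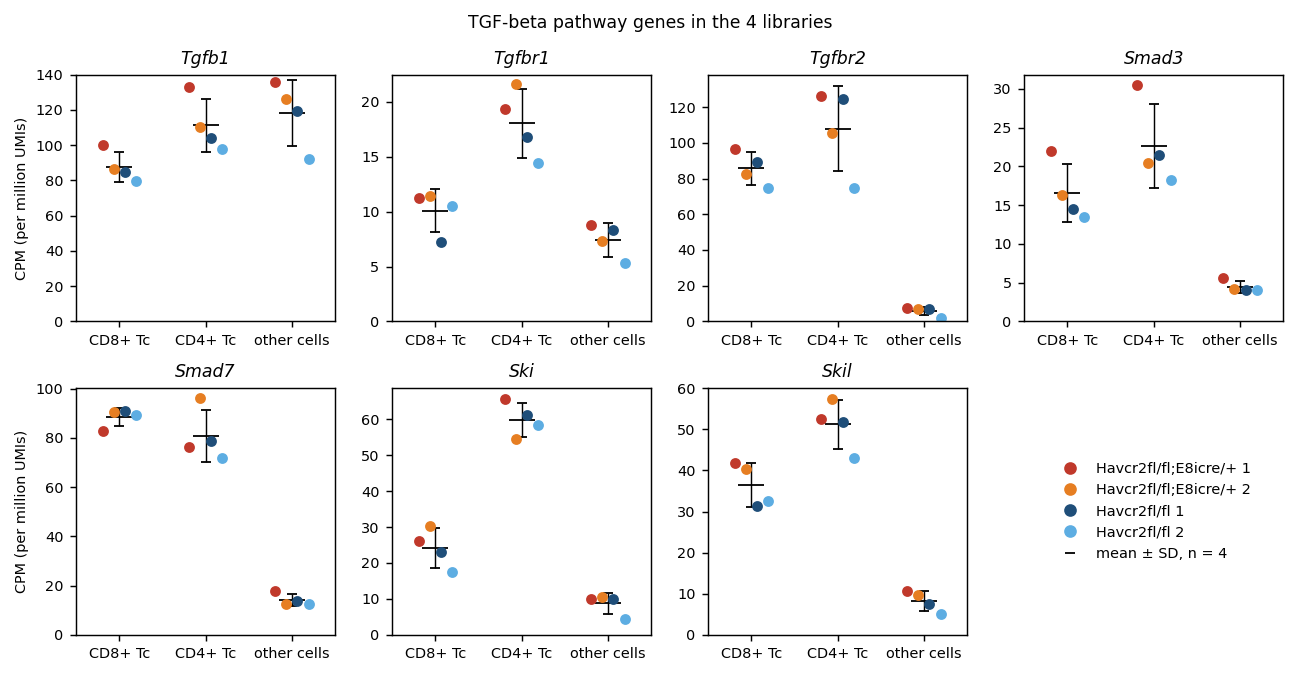
CPM of each gene (y axis, linear, from 0) in CD8+ Tc, CD4+ Tc and other cells (x axis) of the 4 libraries, 1 point per library, with the mean and SD over n = 4 in black. Ski in CD4+ Tc (60.0 ± 4.7 CPM) lies above Ski in CD8+ Tc (24.2 ± 5.5 CPM) in every library, and Tgfbr2 in other cells averages 5.84 CPM.

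Across 23 states with at least 10 cells in 3 or more libraries (13 of Tc and 10 of other cells), the ligand and the receptors followed different orders. States carry a name followed by "-like" where marker genes support it, and the members were left out of the genes used for clustering. Tgfb1 was highest in basophil or mast-like (230 ± 18 CPM, n = 3), stem and progenitor-like (219 ± 32 CPM, n = 4) and granulocyte-monocyte progenitor-like cells (204 ± 18 CPM, n = 4). Of the Tc states, Treg-like CD4+ Tc had the highest Tgfb1 (159 ± 39 CPM, n = 3), then helper precursor CD4-like cells (122 ± 20 CPM), and TTEX-like CD8+ Tc the lowest (67.8 ± 13.05 CPM). Among neighbors in this order of 23, libraries did not overlap in 3 of 22 pairs, 1 of them between the granulocyte-monocyte progenitor-like and the dendritic-like cells (164 ± 18 CPM). None of the 12 neighboring pairs of Tc states was apart.

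Tgfbr2 was highest in cytotoxic CD4-like cells (135.7 ± 31.0 CPM), in an unnamed CD8+ cluster (134.1 ± 17.2 CPM) and in Teff-like CD8+ Tc (127.8 ± 10.4 CPM). The unnamed cluster had 4 of 6 naive or memory markers raised. Its most raised genes included Cx3cr1 and Klf2, which are on the list of short-term effector markers. Tgfbr2 was lowest among Tc in an S phase-like CD8+ cluster (51.3 ± 12.0 CPM, 40.4 to 64.1 over libraries). This S phase-like cluster had all 7 S phase markers raised, and its most raised genes included histone genes and the G2/M marker Cenpf. Its Tgfbr2 mean lay above that of the highest other cells, dendritic-like cells with 45.6 ± 23.6 CPM (18.4 to 60.5), but the libraries overlapped. Tgfbr1, the signaling partner, was highest in Treg-like cells, at 84.7 ± 51.8 CPM (n = 3). Dendritic-like and neutrophil-like cells followed with 24.4 ± 22.1 and 24.3 ± 7.8 CPM, and TTEX-like cells had 6.34 ± 1.9 CPM. None of the 22 neighboring pairs was apart for Tgfbr1, and 1 of the 12 pairs was when Tc states alone were ordered. That pair was Treg-like cells, with 25.6 CPM in the lowest library, and helper precursor CD4-like cells, with 20.2 CPM in the highest. It rests on few counts, as Treg-like cells held 43 Tgfbr1 UMIs in all.

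Smad7, at chr18:75367529-75395935 on the plus strand of GRCm38, had a higher mean CPM in Tc states than in other cells. All 13 Tc states had a mean CPM above that of all 10 other clusters. This is an order of shares, and depth differed. Median UMIs per cell were 19815.5 in stem and progenitor-like cells and 5081 in TPEX-like CD8+ Tc. Smad7 UMIs per cell were not compared. The lowest mean of a Tc state was 52.9 ± 14.95 CPM, in the S phase-like CD8+ cluster that was also lowest for Tgfbr2. It did not overlap the highest other cluster, stem and progenitor-like cells at 32.2 ± 4.5 CPM (26.2 to 36.9). An unnamed CD4+ cluster, at 20.1 to 137.6 CPM over libraries, did overlap these cells. Within Tc, Smad7 was highest in Treg-like (162.9 ± 8.2 CPM), short-term effector-like (136.0 ± 22.6 CPM) and Teff-like cells (130.5 ± 13.9 CPM). Smad3 was highest in short-term effector-like CD8+ Tc (38.0 ± 20.2 CPM) and lowest among Tc in TTEX-like cells (8.47 ± 5.6 CPM). No neighboring pair of Tc states was apart for either gene.

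Of the corepressor genes, Ski was highest in 3 CD4+ states, Treg-like (74.9 ± 42.8 CPM), helper precursor CD4-like (72.5 ± 7.5 CPM) and an unnamed cluster (71.9 ± 27.6 CPM). Short-term effector-like cells led the CD8+ states with 55.0 ± 16.1 CPM, and an S phase-like CD8+ cluster had 14.2 ± 4.8 CPM. Skil was highest in Treg-like (80.0 ± 28.6 CPM), B or plasma-like (69.6 ± 42.0 CPM), helper precursor CD4-like (64.4 ± 8.2 CPM) and cytotoxic CD4-like cells (64.0 ± 11.2 CPM). Among CD8+ states, Skil was highest in TTEX-like cells (46.5 ± 6.8 CPM), where Ski had 18.6 ± 5.1 CPM. These orders are descriptions, and neighboring states overlapped in all 22 pairs for Ski and in all but 3 for Skil.

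**Figure D2:**
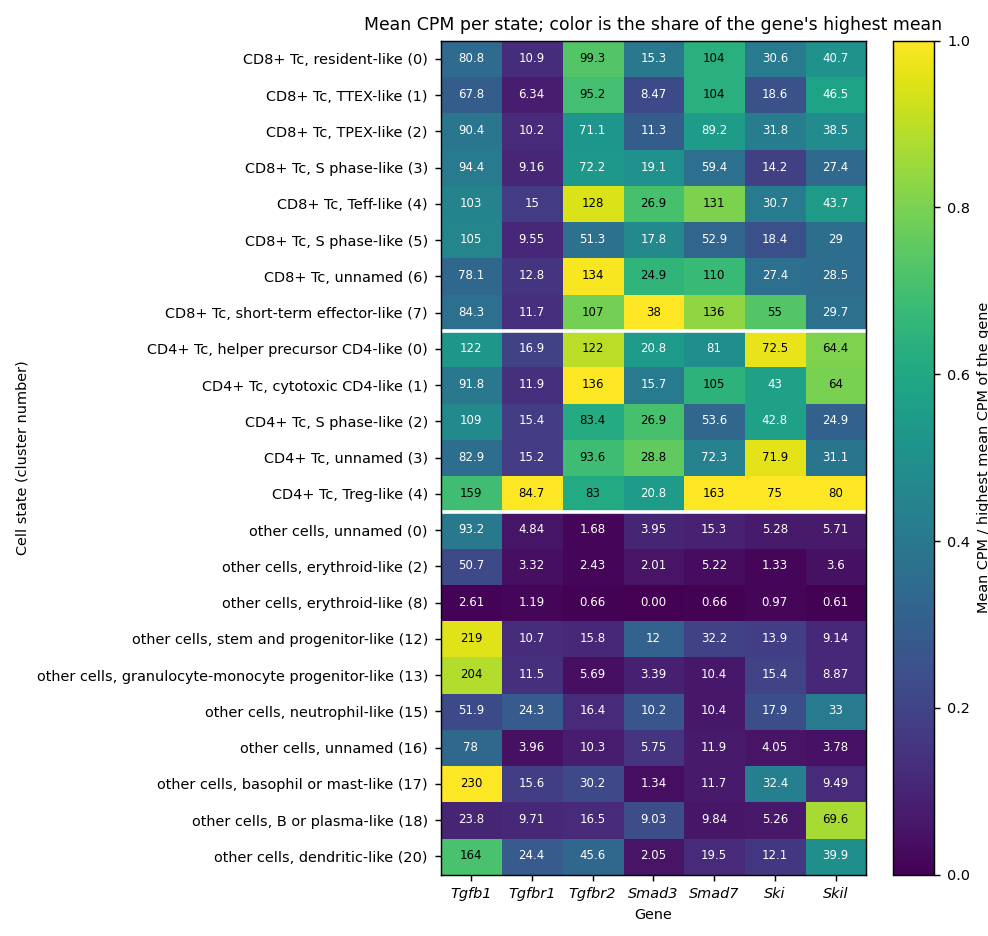
Mean CPM over libraries of each gene (x axis) in 23 cell states (y axis, with cluster number), where color gives the share of that gene's highest mean, so colors compare states within a gene only. Treg-like CD4+ Tc carry the highest mean of Tgfbr1 (84.7 CPM), Smad7 (162.9 CPM), Ski (74.9 CPM) and Skil (80.0 CPM), and Tgfb1 is highest in basophil or mast-like cells (230 CPM).

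Precursor exhausted (TPEX) and terminally exhausted (TTEX) CD8+ Tc are the states the study turned on. The log2 ratio of the mean CPM over libraries was taken for TPEX-like over TTEX-like cells, with 1 CPM added to each mean. The SD given beside it is that of the log2 ratios of the single libraries. The ratio was 0.75 for Ski (SD 0.24), 0.41 for Tgfb1 (SD 0.14) and 0.61 for Tgfbr1 (SD 0.35), all n = 4. After thinning, the ratio was 0.17 for Tgfbr1 (SD 1.34) and 1.08 for Ski (SD 2.15), and at a higher clustering resolution it was 0.29 for Tgfbr1 (SD 0.61). Ski went from 18.6 CPM in TTEX-like to 31.8 CPM in TPEX-like cells. Tgfbr2 had a ratio of -0.42 (SD 0.27), with 71.1 CPM in TPEX-like and 95.2 CPM in TTEX-like cells. Its ratio was -0.16 (SD 0.60) after thinning and -0.55 (SD 0.62) at the higher clustering resolution. Smad3 (0.37, SD 1.35), Smad7 (-0.22, SD 0.22) and Skil (-0.27, SD 0.25) lay about as far from 0 as their spread or closer. Clusters were formed on the same cells, so no test was made.

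Genes whose means over the 23 states followed those of a member most closely are given as a description, since the states share libraries and depth. The states also mix 13 of Tc and 10 of other cells, so r can largely reflect the difference between these groups. For Smad7, means ran from 52.9 to 162.9 CPM over the Tc states and from 0.66 to 32.2 CPM over the others. Likeness within Tc alone was not tested. Over 5962 genes, the highest Pearson r of log2(CPM + 1) for Smad7 were those of Peak1 (0.985), Dcaf5 (0.975) and Rhoh (0.968). For Tgfbr2 these were Tbc1d10c (0.975), Tes (0.967) and Itgal (0.966), and for Tgfb1 Trappc6a (0.960), Tsta3 (0.946) and Mrps33 (0.943). Ski was followed most closely by Arhgap15 (0.942), Sh2b1 (0.937) and Frmd8 (0.929). Skil was followed by Junb (0.934), an AP-1 gene on the list of TGF-beta response genes, then Lmbrd1 (0.933) and Sft2d2 (0.926). Smad3 had Tpst2 (0.906), Fam169b (0.875) and Gbp4 (0.874), and Tgfbr1 had Mvp (0.877), Snx20 (0.854) and Rab2a (0.851).

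CD8+ and CD4+ Tc of the same library were compared to ask whether the pathway genes differ between the lineages. For this and all further tests, UMIs were summed per library and class and fitted with edgeR, and values are CPM scaled by TMM. Contrasts within libraries and the interaction had the library as a block, and genotype tests within a class did not. Of the 7 genes, 6 were lower in CD8+ Tc at an adjusted p under 0.05 and none was higher. All 7 passed the filter on low counts in this and every other comparison except that of TPEX-like cells. Of all 10322 genes tested, 24.3% were called in either direction and 12.3% lower in CD8+ Tc. The members had a median log2 fold change of -0.38, beside 0.00 over all genes.

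Ski separated the lineages most. It stood at 62.1, 54.1, 61.1 and 59.2 CPM in CD4+ Tc of the libraries labelled Havcr2fl/fl;E8icre/+ replicates 1 and 2 and Havcr2fl/fl replicates 1 and 2, and at 25.8, 31.6, 23.8 and 17.8 CPM in CD8+ Tc of the same libraries. Every CD4+ value lay above every CD8+ value, and the difference was -1.20 ± 0.13 on the log2 scale (SE, adjusted p = 1.37e-05), 2.29-fold higher in CD4+ Tc. Over the alternatives the adjusted p was 0.000328 at most, including cells thinned to 2000 UMIs.

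Skil, its paralog, was at 49.6, 57.2, 51.7 and 43.7 CPM in CD4+ Tc and at 41.4, 42.0, 32.4 and 33.5 CPM in CD8+ Tc of the libraries in the same order. The lineages did not overlap (-0.42 ± 0.09, adjusted p = 0.00468), though the call was lost without the library block (adjusted p = 0.0542). The ligand gene Tgfb1 was at 125.4, 109.6, 104.1 and 99.0 CPM in CD4+ Tc and at 98.7, 89.9, 88.1 and 81.9 CPM in CD8+ Tc. It was lower in CD8+ Tc of all 4 libraries (-0.29 ± 0.06, adjusted p = 0.00427), with a lost call under DESeq2 (adjusted p = 0.0511), thinning (0.173) or no block (0.132).

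Of the receptor genes, both were lower in CD8+ Tc. Tgfbr1 was at 18.2, 21.6, 16.8 and 14.6 CPM in CD4+ Tc and at 11.1, 11.9, 7.51 and 10.8 CPM in CD8+ Tc, without overlap (-0.80 ± 0.16, adjusted p = 0.00252). Without CD4+ Tc that had a Foxp3 UMI, an alternative added after the data were seen, the difference of Tgfbr1 was -0.48 (adjusted p = 0.0765), and with thinned cells it was -0.49 (adjusted p = 0.263). Tgfbr2 was at 119, 105, 124 and 75.7 CPM in CD4+ Tc and at 95.3, 85.7, 92.5 and 76.6 CPM in CD8+ Tc. Its lineages overlapped, and the difference of -0.28 ± 0.07 (adjusted p = 0.0135) was lost in the absence of either library labelled Havcr2fl/fl;E8icre/+ or of Havcr2fl/fl replicate 1 (adjusted p = 0.0847, 0.0559 and 0.0657). The Tgfbr2 call was also lost under DESeq2 (adjusted p = 0.110), thinning (0.0917) and no block (0.269).

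Smad3 and Smad7, the transducer and its inhibitor, were less firmly told apart. Smad3 was at 28.8, 20.3, 21.5 and 18.4 CPM in CD4+ Tc and at 21.7, 17.0, 15.03 and 13.8 CPM in CD8+ Tc (-0.38 ± 0.13, adjusted p = 0.049). Its call was lost under every alternative that was run (adjusted p 0.0519 to 0.911). Smad7 was at 72.0, 95.7, 78.5 and 72.8 CPM in CD4+ Tc and at 81.9, 94.0, 94.3 and 91.6 CPM in CD8+ Tc, and its difference of 0.16 ± 0.08 did not pass (adjusted p = 0.152). Without CD4+ Tc that had a Foxp3 UMI, Smad7 was called higher in CD8+ Tc (0.23, adjusted p = 0.045).

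Of 59 other pathway genes on a fixed list, 35 were tested between the lineages, with 3 higher and 10 lower in CD8+ Tc. Klf10, an early TGF-beta response gene, rose by 0.77 on the log2 scale, Itgav, which encodes the alpha-v chain, by 0.50, and the corepressor gene Tgif1 by 0.52. Furin, whose product cleaves the TGF-beta precursor, averaged 87.3 ± 31.3 CPM in CD4+ Tc and 31.4 ± 10.2 CPM in CD8+ Tc (-1.47, adjusted p = 3.60e-07). Junb fell by 0.84, and Itgae was at 16.8 ± 5.6 CPM in CD4+ Tc and 1.60 ± 0.64 CPM in CD8+ Tc (-3.47). Of the 176 Itgae UMIs in CD4+ Tc, 143 came from cells with a Foxp3 UMI. CD4+ Tc without a Foxp3 UMI averaged 4.44 CPM. Hemoglobin and other erythroid markers, all 10 genes of the list detected in CD8+ Tc and 8 to 10 in CD4+ Tc, summed to 2273 to 6927 CPM in CD8+ Tc and 223 to 6291 CPM in CD4+ Tc, and their part in the lineage differences was not tested.

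CD4+ Tc with a Foxp3 UMI, taken as candidate Treg, numbered 113 (33, 57, 6 and 17 in the 4 libraries) beside 1654 without. With Foxp3 itself removed from the fit, 2 of the 7 genes were called, Tgfbr1 and Smad7, both higher, while 7.83% of 6990 genes were called in either direction and 3.55% higher. The median log2 fold change was 0.35 for the members and -0.05 for all genes tested.

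Tgfbr1 carried the largest difference of any member in any contrast. In the libraries labelled Havcr2fl/fl;E8icre/+ replicates 1 and 2 it was at 107 and 94.4 CPM with a Foxp3 UMI (16 and 31 UMIs) and at 15.1 and 16.5 CPM without. In the libraries labelled Havcr2fl/fl replicates 1 and 2 it was at 19.6 and 17.2 CPM with a Foxp3 UMI, from 1 UMI each, and at 18.1 and 15.8 CPM without. The fitted difference was 2.22 ± 0.38 (adjusted p = 2.36e-05, higher in 4 of 4 libraries), or 4.67-fold, yet the Havcr2fl/fl value of 17.2 CPM lay within the range of cells without a Foxp3 UMI.

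The difference was thus carried by the libraries labelled Havcr2fl/fl;E8icre/+, which held 90 of the 113 cells. Summed over these libraries, Tgfbr1 was 6.51-fold higher with a Foxp3 UMI (exact 95% interval of the ratio 4.48 to 9.33). Summed over the Havcr2fl/fl libraries, 2 UMIs gave a ratio of 1.23 (interval 0.143 to 4.75). The intervals cover counting error only and overlap, and the difference between the genotypes was not tested. The call held in every alternative that gave a value, with adjusted p from 4.08e-07 to 0.0196, and values of 1.92 to 2.43 when a library was left out. Thinning left 50 cells with a Foxp3 UMI, in which Tgfbr1 was not testable.

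Smad7, which turns the receptor off, was higher with a Foxp3 UMI in 4 of 4 libraries. It was at 127, 155, 137 and 155 CPM with a Foxp3 UMI and at 76.1, 100, 83.0 and 74.3 CPM without, with no overlap (0.73 ± 0.22, adjusted p = 0.0298). The call was lost under DESeq2 (adjusted p = 0.0952), with no filter on low counts (0.155), after thinning (0.582), and without either library labelled Havcr2fl/fl;E8icre/+ (0.154 and 0.204) or Havcr2fl/fl replicate 2 (0.0897). Tgfbr2 went the other way, at 120, 64.0, 19.6 and 17.2 CPM (18, 21, 1 and 1 UMIs) with and 131, 121, 139 and 86.7 CPM without a Foxp3 UMI, and did not pass (-0.83 ± 0.27, adjusted p = 0.0517). Tgfbr2 was called lower with no filter on low counts (adjusted p = 0.0219), with doublets kept (0.0334) and without the library labelled Havcr2fl/fl;E8icre/+ replicate 1 (-1.27, 0.0378). Ski was at 73.6, 85.3, 157 and 103 CPM with and 67.6, 56.9, 62.6 and 61.9 CPM without, a difference of 0.60 ± 0.27 (adjusted p = 0.219).

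The other members were not told apart by the Foxp3 UMI. Tgfb1 differed by 0.35 (95% interval -0.10 to 0.79), Skil by 0.35 (-0.24 to 0.94) and Smad3 by 0.26 (-0.68 to 1.19), with adjusted p of 0.501, 0.663 and 0.887.

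**Figure D3:**
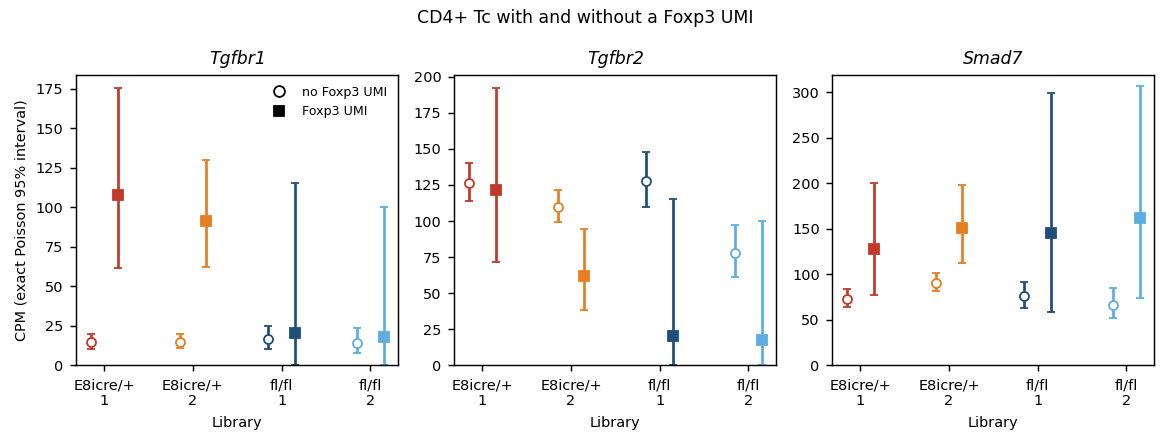
CPM of Tgfbr1, Tgfbr2 and Smad7 (y axis, linear, from 0, without TMM) in CD4+ Tc with (squares) and without (open circles) a Foxp3 UMI in the 4 libraries labelled Havcr2fl/fl;E8icre/+ (E8icre/+) and Havcr2fl/fl (fl/fl), with exact Poisson 95% intervals for counting error. The Tgfbr1 squares of the E8icre/+ libraries, with intervals of 61.7 to 175 and 62.1 to 130 CPM, lie above their circles, while those of the fl/fl libraries rest on 1 UMI each.

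Of the pathway list, 26 genes were tested against the Foxp3 UMI, with 5 higher and 1 lower. Itgae averaged 242.5 ± 88.2 CPM with and 4.44 ± 2.5 CPM without a Foxp3 UMI (adjusted p = 1.19e-19). Itgb8, whose product pairs with alpha-v to free latent TGF-beta, averaged 120.3 ± 23.1 and 19.8 ± 1.9 CPM (2.63, adjusted p = 1.98e-09). Lrrc32, which encodes GARP, the surface anchor of latent TGF-beta on Treg, had 20 UMIs with (1 to 13 per library) and 4 without a Foxp3 UMI (0 to 4 per library). Furin fell by 2.10 on the log2 scale, from 100.4 to 22.7 CPM.

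Genes of other lists moved with the Foxp3 UMI too. Treg markers other than Foxp3, 5 of 5 detected in each library, summed to 3832 to 5096 CPM with and 768 to 1037 CPM without a Foxp3 UMI. The list of 4 B or plasma markers, of which 1 to 4 were detected per library, summed to 520 to 728 CPM with and 82.7 to 145 CPM without a Foxp3 UMI. Nearly all of this was Ighm (484 to 715 CPM with a Foxp3 UMI), while Ms4a1 was at 0 and Cd79a reached at most 6.74 CPM. The list of 5 dendritic markers, of which 1 to 3 were detected with a Foxp3 UMI, summed to 311 to 593 CPM with and 41.0 to 109 CPM without, mostly Cd74 (311 to 566 CPM with a Foxp3 UMI). The 10 erythroid markers, of which 3 to 9 were detected with a Foxp3 UMI, summed to 108 to 32066 CPM with and 224 to 6168 CPM without, and median UMIs per cell were 2188 to 8842 with and 2778 to 5402 without. Their part in the results was not tested.

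CD8+ Tc were then split by a UMI of genes that mark their states, to ask whether the members differ within the lineage. Nr4a2, a nuclear receptor gene linked to terminal exhaustion, had a UMI in 1521 cells and none in 2756. Of the 7 genes, 2 fell and 1 rose, while 14.2% of 9706 genes were called. Smad3 was at 16.0, 8.77, 10.8 and 8.43 CPM with and at 26.1, 20.8, 17.5 and 16.6 CPM without an Nr4a2 UMI in the libraries in the same order. The values did not overlap, and Smad3 was lower in 4 of 4 libraries (-0.87 ± 0.16, adjusted p = 0.000841).

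Ski was at 18.4, 21.04, 15.3 and 15.2 CPM with and at 31.7, 36.4, 29.1 and 18.9 CPM without an Nr4a2 UMI. It was lower in 4 of 4 libraries with overlapping ranges (-0.74 ± 0.13, adjusted p = 0.000708). Skil was at 46.8, 47.8, 42.7 and 33.2 CPM with and at 33.4, 38.6, 24.8 and 32.9 CPM without, and rose by 0.39 ± 0.12 (adjusted p = 0.0285). The paralogs Ski and Skil thus carried opposite signs in this contrast. Tgfbr1 (-0.40), Tgfbr2 (-0.17), Tgfb1 (-0.09) and Smad7 (0.04) did not pass (adjusted p 0.204 to 0.816).

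None of these 3 calls held when cells were first thinned to 2000 UMIs (864 cells with an Nr4a2 UMI) or when the library block was left out. As in every thinned split, cells that lost the gating UMI counted as without it, and most counts were discarded. No conclusion is therefore drawn from a call lost after thinning. After thinning, Smad3 was at -0.32 and Ski at -0.22 (adjusted p = 0.742 and 0.799), and without the block at -0.82 and -0.73 (adjusted p = 0.0892 and 0.0872). Without cells that had an Mki67 UMI, an alternative added after the data were seen, Smad3 (-0.96, adjusted p = 0.00411) and Ski (-0.67, adjusted p = 0.00388) were called and Skil was not (0.36, adjusted p = 0.0699). The Skil call was also lost under DESeq2 (adjusted p = 0.347), with doublets kept (0.0607) and without either library labelled Havcr2fl/fl;E8icre/+ (0.156 and 0.0819) or Havcr2fl/fl replicate 1 (0.131). Median UMIs per cell were 3354 to 8815 with and 2831 to 6373 without an Nr4a2 UMI. The 7 monocyte or macrophage markers summed to 37.1 to 94.4 CPM with and 271 to 404 CPM without, nearly all Ly6c2, with Csf1r at most at 1.47 CPM, and their part was not tested.

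Of 32 pathway genes tested, 5 were higher and 3 lower with an Nr4a2 UMI. Rgs16, a regulator of G protein signaling, averaged 63.8 ± 12.5 CPM with and 20.6 ± 5.9 CPM without (1.55), Itgav 102.1 ± 24.3 and 55.2 ± 15.3 CPM (0.88), and Itgb8 18.2 ± 10.1 and 4.11 ± 1.4 CPM (2.07). Smad4, the common partner of receptor-activated SMADs, fell by 0.36, Tab2, an adaptor of the TAK1 kinase, fell by 0.30, and Junb fell by 0.25.

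Cycling CD8+ Tc, with a UMI of the proliferation gene Mki67, numbered 1216 beside 3061 without. Here 4 of the 7 genes were called, 3 lower and 1 higher, where 42.2% of 9668 genes were called. Smad7 was at 66.6, 75.7, 78.9 and 61.3 CPM with and at 90.6, 102.4, 99.8 and 109.2 CPM without an Mki67 UMI, without overlap (-0.50 ± 0.08, adjusted p = 5.77e-05). Tgfbr2 was at 76.8, 76.5, 80.9 and 58.7 CPM with and at 106.0, 89.2, 95.7 and 86.3 CPM without (-0.37 ± 0.08, adjusted p = 0.000755).

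Tgfb1 rose, from 88.0, 79.4, 82.0 and 73.8 CPM without to 105.6, 106.4, 92.3 and 90.7 CPM with an Mki67 UMI, without overlap (0.30 ± 0.07, adjusted p = 0.00279). The Tgfb1 call was lost under DESeq2 (adjusted p = 0.0621), and those of Tgfb1, Tgfbr2 and Skil without the library block (0.0811, 0.0587 and 0.199). Skil was at 36.8, 34.4, 27.0 and 30.4 CPM with and at 43.1, 45.5, 34.3 and 34.7 CPM without (-0.29 ± 0.10, adjusted p = 0.0306). Its call was lost under DESeq2 (0.316) and in the absence of either library labelled Havcr2fl/fl;E8icre/+ (0.0594 and 0.144) or Havcr2fl/fl replicate 1 (0.0614). Ski (-0.34, adjusted p = 0.0641), Tgfbr1 (-0.14) and Smad3 (0.08) did not pass, though Ski was called without the library labelled Havcr2fl/fl;E8icre/+ replicate 2 (adjusted p = 0.041) or Havcr2fl/fl replicate 1 (0.0382), with no filter on low counts (0.0395) and with doublets removed at a fixed rate (0.0486).

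All 4 calls were lost after thinning, which left 684 cells with an Mki67 UMI and gave Smad7 a difference of -0.31 (adjusted p = 0.183) and Tgfbr2 one of -0.29 (adjusted p = 0.244). Cells with an Mki67 UMI had medians of 4551 to 9972 UMIs, those without 2792 to 6464. CPM is a share of all UMIs, so a lower CPM need not mean fewer UMIs per cell. The 1216 cells with an Mki67 UMI held 701 UMIs of Smad7, 744 of Tgfbr2 and 338 of Skil. The 3061 cells without held 1477, 1420 and 606. Each of these genes thus had more UMIs per cell in the cells with an Mki67 UMI, which also held more UMIs in all, and a smaller share of them. Of 32 pathway genes, 1 was higher and 12 were lower. Cdkn1a, a cell cycle inhibitor gene, averaged 34.5 ± 17.9 CPM with and 16.9 ± 7.1 CPM without (0.99), while Junb fell by 0.59, Rnf111, which encodes a ubiquitin ligase for SMAD7 and SKI proteins, fell by 0.51, and Tab2 fell by 0.48.

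**Figure D4:**
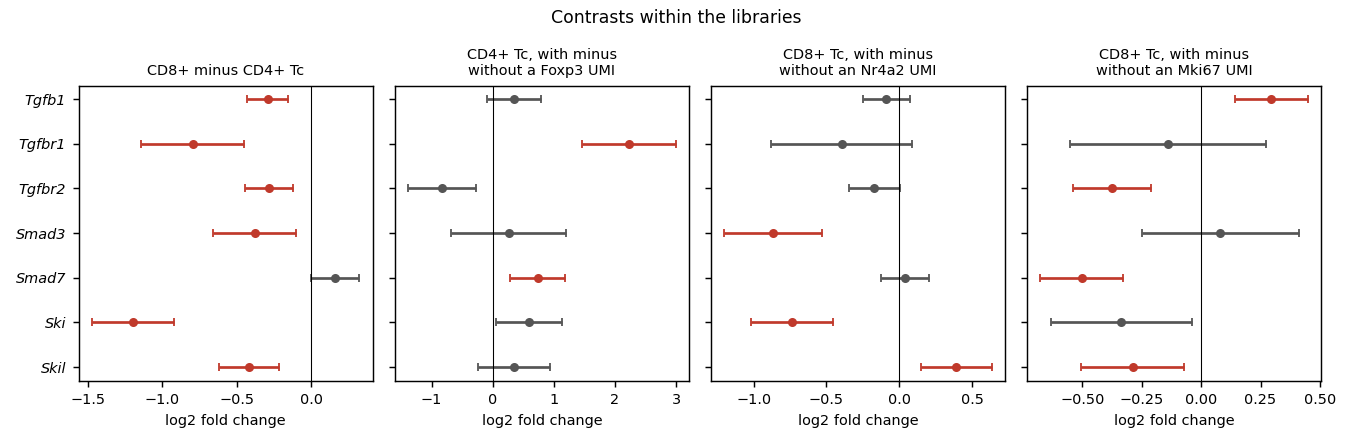
Log2 fold change (x axis) of the 7 genes (y axis) in 4 contrasts within libraries, with 95% confidence intervals from edgeR, red where the adjusted p is under 0.05; each panel has its own x range. Ski (-1.20) leads the lineage contrast and Tgfbr1 (2.22) the Foxp3 contrast, and in the Nr4a2 panel Ski and Smad3 lie below 0 and Skil above.

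Splits by Tcf7, Cx3cr1 and Itgae gave no call among the members. Tcf7, which marks precursor cells, had a UMI in 628 CD8+ Tc, and 14.5% of 9667 genes were called. The member differences ran from -0.27 (Smad3, 95% interval -0.76 to 0.22) to 0.35 (Ski, -0.05 to 0.75). For Cx3cr1, a gene of effector Tc with a UMI in 577 cells, 10.2% of 9280 genes were called. Ski was nearest to the threshold, at 29.8, 40.8, 28.5 and 26.4 CPM with and 24.6, 29.3, 21.9 and 16.0 CPM without a Cx3cr1 UMI (0.43 ± 0.15, adjusted p = 0.0741, higher in 4 of 4 libraries).

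Itgae had a UMI in only 31 CD8+ Tc, 5 to 10 per library, and 0.399% of 9015 genes were called. No member was called by edgeR, and 1 had an unadjusted p under 0.05 (Smad7, -0.87, 95% interval -1.69 to -0.05). DESeq2 called none, but it gave an adjusted p for only 1675 genes in this split. Any member without one could not be called, so no conclusion is drawn from this. In the same splits, unadjusted p was under 0.05 for 0 members with Tcf7 and for 2 with Cx3cr1, Ski and Tgfbr2, again with no call by DESeq2.

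Pathway genes did pass in the first 2 of these splits. With a Tcf7 UMI, 2 of 32 were higher, Ldlrad4 (1.21), an inhibitor of SMAD phosphorylation, and Smad4 (0.36), and 6 were lower. Rgs16 fell by 1.83 on the log2 scale, from 42.2 ± 5.7 to 10.3 ± 5.2 CPM, Itgav fell by 1.22 and Gadd45b, a stress response gene, fell by 1.19. With a Cx3cr1 UMI, Itgav fell by 0.51 and the aryl hydrocarbon receptor gene Ahr fell by 1.06, and with an Itgae UMI none of 29 passed.

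The genotypes were compared to ask whether Tc of the libraries labelled Havcr2fl/fl;E8icre/+ differ in these genes. No member was called by edgeR or DESeq2 in CD8+ Tc, CD4+ Tc or TPEX-like cells, and none had an unadjusted p under 0.05. Calls were as rare over all genes, with 0.0275% of 10890 genes in CD8+ Tc, 0.0103% of 9673 in CD4+ Tc and 0.0292% of 6843 in TPEX-like cells. The depth and number of libraries leave wide intervals, so that differences of the sizes below were not told apart from 0.

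In CD8+ Tc, Skil was at 40.0 and 41.4 CPM in the libraries labelled Havcr2fl/fl;E8icre/+ and at 31.8 and 33.0 CPM in those labelled Havcr2fl/fl (0.33, 95% interval -0.08 to 0.74). Ski was at 24.9 and 31.2 CPM against 23.4 and 17.5 CPM (0.46, -0.06 to 0.97), and Smad3 at 20.98 and 16.7 CPM against 14.8 and 13.6 CPM (0.42, -0.10 to 0.94). Tgfbr1 was at 10.7 and 11.7 CPM against 7.38 and 10.7 CPM (0.30, -0.33 to 0.93), and Tgfb1 at 95.5 and 88.7 CPM against 86.6 and 80.6 CPM (0.14, -0.24 to 0.52). Tgfbr2 was at 92.2 and 84.5 CPM against 90.9 and 75.4 CPM (0.09, -0.32 to 0.50). Smad7 was at 79.2 and 92.7 CPM against 92.7 and 90.2 CPM (-0.09, -0.49 to 0.30).

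The libraries of the genotypes did not overlap for 5 of the 7 genes in CD8+ Tc, where this was so for 28.0% of all genes tested. All adjusted p were 0.999, and the median log2 fold change was 0.30 for the members and -0.00487 for all genes. Without the library labelled Havcr2fl/fl;E8icre/+ replicate 1, which went against its label, Ski was at 0.61, Tgfbr1 at 0.36, Skil at 0.35, Smad3 at 0.24, Tgfb1 at 0.0806, Tgfbr2 at 0.019 and Smad7 at 0.0151, with no call. All 34 tested genes of the pathway list also missed the threshold.

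CD4+ Tc, in which E8i-cre is not meant to act, gave differences from -0.05 for Ski (95% interval -0.50 to 0.40) to 0.34 for Tgfbr1 (-0.32 to 1.00). Libraries of the genotypes did not overlap for 2 of the 7 genes, where 31.0% of genes tested did not. Tgfb1 was at 128 and 112 CPM against 106 and 101 CPM (0.21), and Tgfbr1 at 18.6 and 22.0 CPM against 17.0 and 14.9 CPM. Tgfbr2 was spread more within a genotype than between them, at 121 and 107 CPM against 126 and 77.3 CPM (0.15, -0.39 to 0.70). None of 35 pathway genes passed. Smad3 (0.28), Skil (0.16) and Smad7 (0.15) had intervals that included 0. Without the library labelled Havcr2fl/fl;E8icre/+ replicate 1, Tgfbr1 was at 0.45, Smad7 at 0.34, Skil at 0.26, Tgfb1 at 0.11, Tgfbr2 at 0.0678, Smad3 at 0.0171 and Ski at -0.15, with no call.

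In TPEX-like cells, 561 in all, 5 of the 7 genes passed the filter on low counts, and Tgfbr1 and Smad3 did not. Ski was at 45.2 and 34.2 CPM in the libraries labelled Havcr2fl/fl;E8icre/+ and at 28.4 and 22.8 CPM in those labelled Havcr2fl/fl (0.59, 95% interval -0.17 to 1.36, adjusted p = 0.855). Skil was at 47.6 and 42.1 CPM against 30.5 and 38.1 CPM (0.38, -0.30 to 1.06). Tgfbr2 (0.30), Tgfb1 (0.24) and Smad7 (-0.07) also had intervals that included 0, and none of 20 pathway genes passed. Without the library labelled Havcr2fl/fl;E8icre/+ replicate 1, Ski was at 0.42, Skil at 0.31, Tgfb1 at 0.26, Tgfbr2 at 0.17 and Smad7 at 0.17, with no call.

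A test of whether the genotype difference itself differs between CD8+ and CD4+ Tc called no member, and 0.0184% of 10892 genes. Ski came nearest (0.50, 95% interval -0.02 to 1.01, adjusted p = 0.998), and without the library labelled Havcr2fl/fl;E8icre/+ replicate 1 it was at 0.74 (adjusted p = 0.452). For the other members the interaction ran from -0.23 (Smad7, -0.55 to 0.10) to 0.18 (Skil, -0.24 to 0.60), and without that library from -0.33 (Smad7) to 0.21 (Smad3), with no call.

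**Figure D5:**
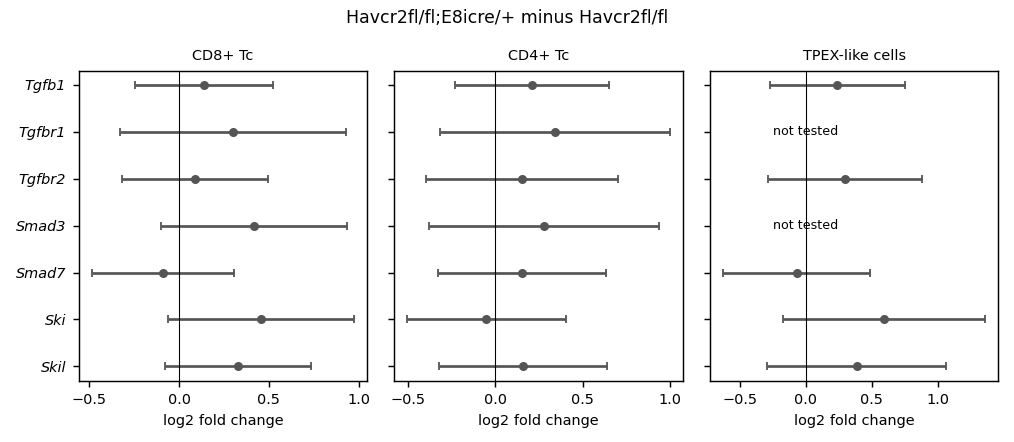
Log2 fold change (x axis) of the libraries labelled Havcr2fl/fl;E8icre/+ over those labelled Havcr2fl/fl for the 7 genes (y axis) in CD8+ Tc, CD4+ Tc and TPEX-like cells, with 95% confidence intervals from edgeR; each panel has its own x range. Every interval includes 0, and Ski has the highest value in CD8+ Tc (0.46) and TPEX-like cells (0.59).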

How the data were processed

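Spleen Tc of 4 samples were measured by single-cell RNA sequencing, and genotypes came from the labels. The deposited files hold the authors' UMI counts per gene and barcode from Cell Ranger 6.1.2 on mm10 (per the submitters' processing notes), not normalized, for 32285 genes and 1 antibody tag, which was left out. The tag was not used to select cells, so the donor origin of single Tc was not checked. Positions were taken from GENCODE M21, in which 32158 identifiers were found.

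Barcodes with fewer than 500 genes or 1000 UMIs, or over 10% of UMIs from mitochondria, were dropped, as were doublets called by Scrublet (Python 3.11.15, scanpy 1.11.5). It marked 1, 6, 7 and 105 cells, few in 3 libraries, so removal at 0.8% per 1000 barcodes was an alternative. Clustering used Seurat 5.3.0 (R 4.3.3) with 2000 variable genes, 30 dimensions and 20 neighbors, and resolution 0.6 for all cells, 0.5 for CD8+ Tc and 0.2 for CD4+ Tc, without the members and the pathway list. A cluster was named from at least 3 raised markers. CD8+ Tc were cells of Tc clusters in which Cd8a or Cd8b1 was counted and Cd4 was not, and CD4+ Tc the reverse.

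UMIs were summed per library and class and tested with edgeR 4.0.16 (TMM, filterByExpr, quasi-likelihood test, Benjamini-Hochberg adjustment over all genes tested, threshold 0.05). Contrasts within libraries had the library as a block, and the gating gene was removed. With thinned cells, classes and gates were read again on the UMIs that remained. The test was tried on simulated counts. Alternatives were DESeq2 1.42.0, its size factors in edgeR, no filter, stricter cells (1000 genes, 5% mitochondrial UMIs), doublets kept, thinning to 2000 UMIs, no library block, the replicate number as a block, and each library left out. The members and lists were chosen with earlier results of these data known. All members are named, with up to 3 pathway genes per direction and comparison by smallest p and the 3 genes nearest to each member over states, among genes with a mean of at least 20 CPM.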

Additional observations from a re-analysis of the deposited data

How the results depend on the processing

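Of 885 refits of a member's difference under alternatives, 776 kept direction and side of the threshold, 56 lost a call, 8 gained one and 45 changed sign. Replicate numbers were not paired by the labels, and replicates 1 of both genotypes deviated with r = -0.15 over 9953 genes. With the replicate block, 0 members were called in CD8+ Tc, CD4+ Tc and TPEX-like cells and 0, 5 and 6 genes in all (3, 1 and 2 without it), and with crossed numbers, added after the data were seen, 67, 44 and 2 genes and no member. Members called between lineages fell to 3 with DESeq2, 2 thinned and 2 with no library block (4 to 5 with a library left out). For Foxp3 this was 1 with DESeq2 and 0 thinned (1 to 2 with a library left out), for Nr4a2 0 thinned and 0 with no block (2 to 3), and for Mki67 2 with DESeq2, 0 thinned and 1 with no block (3 to 4). No filter on low counts gave 89, 51, 43 and 64 called genes for the genotype in CD8+ Tc, CD4+ Tc, TPEX-like cells and the interaction. DESeq2 called 1493 genes between lineages, 347 for Foxp3, 574 for Nr4a2 and 2239 for Mki67, and thinning left 1341, 114, 457 and 1054. Leaving out a library gave 5 to 13 called genes in CD8+ Tc and 5 to 28 in CD4+ Tc.

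Signs changed only for differences that had not passed. Doublets kept gave Smad7 0.0169 for the genotype in CD8+ Tc, Ski 0.0798 in CD4+ Tc and Tgfbr1 -0.0461 in the interaction, and stricter cells gave Smad7 0.019 in TPEX-like cells. The Tgfbr1 interaction was also -0.0059 with DESeq2, -0.0034 with its size factors and -0.0184 with doublets by rate. For Foxp3, Smad3 was -0.0225 with DESeq2, and Skil -0.38 and Ski -0.27 thinned. For Tcf7, Skil was -0.0240 with DESeq2, -0.0457 with no filter, -0.0290 with stricter cells and -0.25 thinned, Smad3 0.0227 with stricter cells, and Tgfbr2 0.0474 with stricter cells and 0.10 thinned. For Itgae, Tgfb1 was 0.0443 with DESeq2 size factors and Skil -1.04 thinned, and for Mki67 Smad3 was -0.0573 thinned. The cause was not tested.

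With a library left out, genotype values ran from -0.21 to 0.0151 (Smad7) and -0.0381 to 0.23 (Tgfbr2) in CD8+ Tc, -0.15 to 0.0417 (Ski), -0.0766 to 0.34 (Smad7) and -0.15 to 0.57 (Tgfbr2) in CD4+ Tc, -0.39 to 0.17 (Smad7) in TPEX-like cells, and -0.35 to 0.36 (Tgfbr1) and -0.32 to 0.11 (Tgfbr2) in the interaction. They ran from -0.21 to 0.52 (Skil) and -0.87 to 0.58 (Smad3) for Foxp3, and for Tcf7 from -0.0659 to 0.0725 (Skil), -0.43 to 0.0126 (Smad3), -0.0693 to 0.0159 (Tgfbr2) and -0.17 to 0.0082 (Smad7). For Cx3cr1 they ran from -0.39 to 0.26 (Tgfbr1), -0.0821 to 0.13 (Tgfb1) and -0.0556 to 0.13 (Smad7), for Itgae from -0.20 to 1.10 (Tgfbr1), -0.70 to 0.66 (Smad3), -0.56 to 0.69 (Skil) and -0.38 to 0.0273 (Tgfb1), for Nr4a2 from -0.0212 to 0.0726 (Smad7), and for Mki67 from -0.0854 to 0.20 (Smad3).

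The TPEX-like over TTEX-like log2 ratio moved by more than its SD to 0.57 (Tgfb1) and 0.99 (Ski) with stricter cells, and to 0.17 (Tgfbr1, SD 1.34), 1.08 (Ski, SD 2.15) and -0.53 (Skil) thinned. The genotype in TPEX-like cells was not run with doublets kept. In the splits by a gene's UMI, not every member had a value in every refit. Those by Foxp3, Tcf7, Cx3cr1, Itgae, Nr4a2 and Mki67 gave 82, 82, 83, 74, 90 and 83 values. The thinned Foxp3 and Itgae splits gave none for Tgfbr1. The median of all genes in the Itgae split was -0.22. With 2 libraries per genotype, differences of 0.5 on the log2 scale lay within the intervals of most members.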
